A study of Mus musculus with 5 samples.

Results

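The 46 genes described here encode collagens, other proteins of the extracellular matrix and enzymes that remodel it, and were taken as a fixed list of gene symbols from the 54232 genes of a bulk RNA sequencing table. Each of the 46 symbols matched 1 Ensembl identifier through the GENCODE M21 annotation. In 1 or more samples, 45 of them reached 5 normalized counts, and these were tested among the 18156 genes that did. The remaining gene was Lum (lumican, a small proteoglycan of collagen fibrils), which had at most 1 read in any sample.

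RNA was sequenced from primary myoblasts, the muscle precursor cells that fuse into multinucleated myotubes, of WT mice (n = 3 samples) and Elmo2EID/EID mice (n = 2 samples). ELMO2 acts with DOCK proteins to activate the GTPase RAC, and the Elmo2EID allele is a whole-body knock-in, made by homologous recombination, with a mutation in the ELMO inhibitory domain that favours the open form of the protein. All mice were on a mixed C57BL6 and 129SV background and were 6 to 8 weeks old, the cells were purified from leg muscle with a satellite cell kit and anti-integrin beads and grown on gelatin-coated dishes, and all 5 cultures were differentiated in low horse serum for 72 h. The study describes its primary cell work as typically using cells from separate mice, and each deposited column carries a number of its own beside the replicate number, but what that number stands for and which mouse gave which culture are not given in the sources used here. The p-values therefore measure the spread between these samples, which may be partly technical.

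The extracellular matrix is the network of secreted proteins that surrounds cells and ties them together. In muscle, each myofibre is wrapped in a basement membrane of laminins, collagen IV, nidogens and perlecan, outside which lies connective tissue of fibrillar collagens, collagen VI, fibronectin and small proteoglycans. Muscle cells make part of this matrix themselves, and fibroblasts and fibro-adipogenic progenitors are known as the main source of the fibrillar collagens, while metalloproteinases cut matrix proteins and the tissue inhibitors of metalloproteinases, the TIMPs, block them.

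In Elmo2EID/EID myoblasts, 3 of the 45 tested genes fell and none rose at an adjusted p under 0.05 in limma's test with Benjamini-Hochberg adjustment. They were Timp1, which encodes a secreted inhibitor of metalloproteinases, Col18a1, which encodes the basement membrane collagen whose C-terminal fragment is endostatin, and Mmp14, which encodes a membrane-bound metalloproteinase that activates MMP2. Among all 18156 genes, 2.23% passed and 1.14% passed as lower, so the members' 6.67% stands on 3 genes. The DNA just upstream of these 3 genes is shown because they are the members past the threshold of the test. It is given 5′ to 3′ on each gene's strand, from RefSeq on GRCm38.p6, up to the base before the annotated start (for Col18a1, before its first GENCODE exon), with matches to the GC box GGGCGG on either strand in capitals:
Timp1 (chrX:20869916-20870165, plus strand): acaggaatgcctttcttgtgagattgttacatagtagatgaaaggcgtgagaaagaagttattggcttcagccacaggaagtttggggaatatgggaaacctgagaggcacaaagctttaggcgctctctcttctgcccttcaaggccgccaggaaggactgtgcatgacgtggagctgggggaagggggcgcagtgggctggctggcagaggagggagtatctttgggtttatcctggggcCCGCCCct
Mmp14 (chr14:54431348-54431597, plus strand): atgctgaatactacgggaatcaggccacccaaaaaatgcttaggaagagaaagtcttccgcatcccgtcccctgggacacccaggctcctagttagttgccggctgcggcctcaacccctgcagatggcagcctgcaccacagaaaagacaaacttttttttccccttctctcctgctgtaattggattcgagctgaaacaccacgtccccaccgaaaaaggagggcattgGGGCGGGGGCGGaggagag
Col18a1 (chr10:77166549-77166780, minus strand): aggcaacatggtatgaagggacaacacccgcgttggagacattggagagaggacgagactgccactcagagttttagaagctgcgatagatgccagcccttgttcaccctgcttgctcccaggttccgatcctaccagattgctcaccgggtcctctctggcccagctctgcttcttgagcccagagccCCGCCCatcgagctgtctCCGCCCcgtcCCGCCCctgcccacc

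The GC box was found 1 time in the Timp1 window, 2 times in that of Mmp14 and 3 times in that of Col18a1. It was present in 32.7% of all 32851 promoter windows of 250 bases, and in 20 of the 34 windows that the table holds for 30 of the members. Neither the AP-1 motif TGANTCA nor the TATA box TATAAA, searched on both strands, was in the 3 printed windows, and each was present in 6.75% and 12.4% of all windows. These matches describe letters and not binding. Col18a1 has a second annotated start 52.8 kb downstream, and the gene counts do not tell the transcripts apart. Timp1 (chromosome X, 20870166 to 20874735) lies inside Syn1 on the opposite strand, with 0 overlaps between their exons.

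The levels of all 46 genes in each sample are shown in the plot of normalized counts, the read counts divided by the size factor that the authors computed for each sample. Sample totals were 35021856 to 49381544 reads, at which 3 reads equal 2.65 to 3.73 normalized counts. Together the 46 genes took 1.10%, 0.777% and 0.802% of the reads in WT replicates 1, 2 and 3 and 0.773% and 0.897% in Elmo2EID/EID replicates 1 and 2. Elmo2 itself had a log2 fold change of -0.22 (limma, adjusted p = 0.226), and the knock-in is not designed to alter its amount, so this is no check of the labels.

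**Figure D1:**
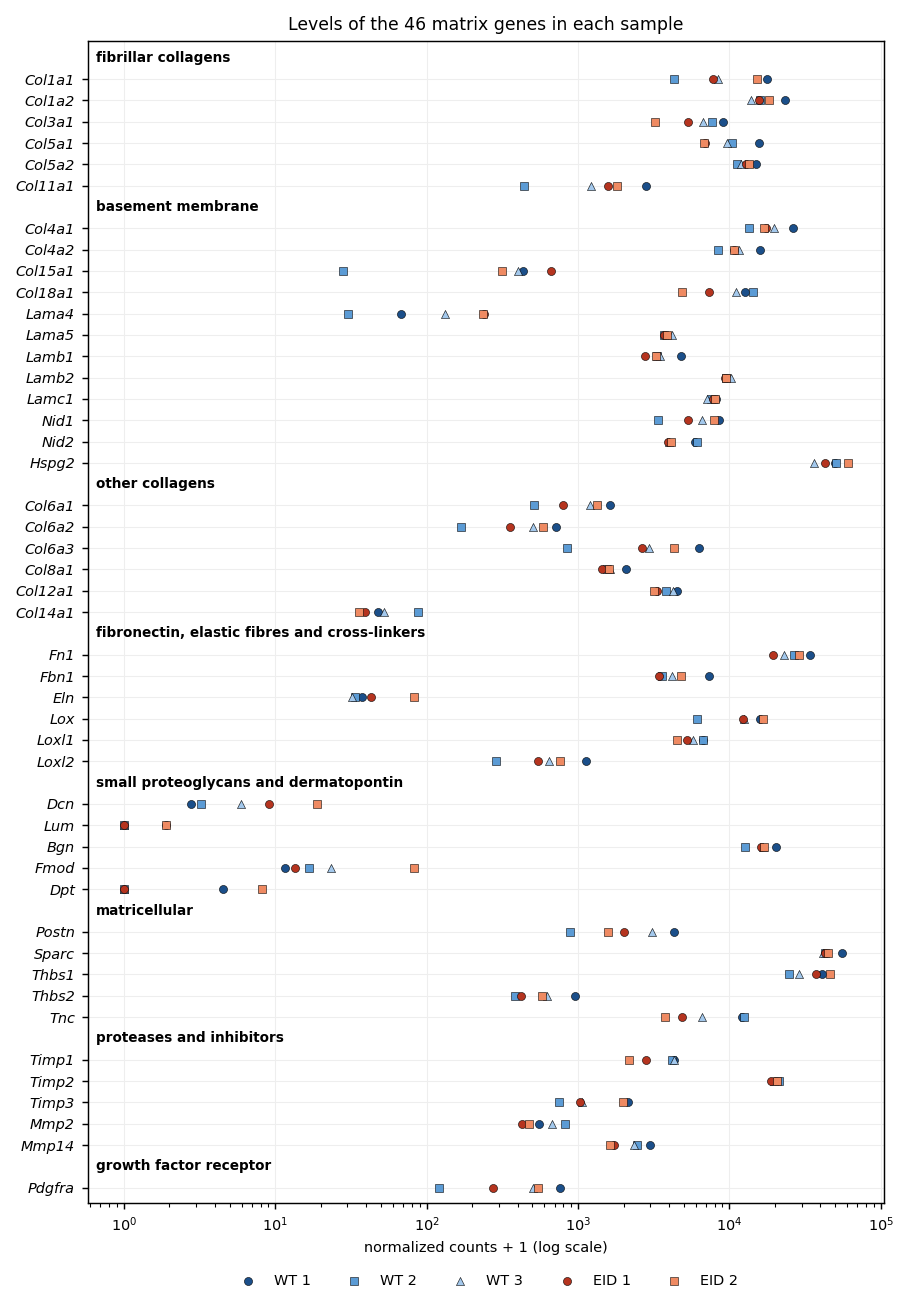
Normalized counts plus 1 (log axis) of the 46 matrix genes, grouped by role, with 1 point for each of the 3 WT (blue) and 2 Elmo2EID/EID (EID, red and orange) samples. Most genes lie above 100, whereas Col14a1, Eln, Dcn, Lum, Fmod and Dpt lie below 100 in every sample, and WT replicate 2 is far to the left for genes such as Col15a1 and Col6a3.

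The cultures carried the RNA of differentiating muscle. The 9 myoblast and myotube markers were all well above the floor, and their summed level was 1293057 to 1482746 normalized counts in WT and 1220160 to 1423624 in Elmo2EID/EID samples. The 10 fibroblast and fibro-adipogenic progenitor markers summed to 163 to 522 in WT and 343 to 574 in Elmo2EID/EID samples, with Cfd at 0 in every sample and Pi16 and Tcf21 at or under 3 reads. The 12 endothelial markers summed to 396 to 1302 in WT and 2988 to 4486 in Elmo2EID/EID samples. Of the 12, 0 passed in limma, with 9 at an unadjusted p under 0.05, 1 called by edgeR and 5 by DESeq2. Over all genes tested, these shares were 2.23%, 15.2%, 2.25% and 5.34%. The 8 pericyte and smooth muscle markers summed to 43547 to 59378 in WT and 47671 to 47849 in Elmo2EID/EID samples. Most of this sum was Acta2, at 32559 to 46971 in WT and 37836 and 37715 in Elmo2EID/EID samples. Rgs5 and Notch3 of the same list fell (adjusted p = 0.00759 and 0.0280 from limma), as did Pax7 of the myogenic markers (adjusted p = 0.00764 from limma). Of the pericyte list, the genotypes did not overlap for 2 markers that were lower and 2 that were higher in Elmo2EID/EID samples. For the myogenic list these were 3 lower and 3 higher, and for the endothelial list 1 lower and 11 higher. Over all genes tested, 15.9% were separated as lower and 16.7% as higher. The 5 tendon cell markers, with Tnmd and Kera at or under 3 reads, summed to 4258 to 5065 in WT and 3403 to 4205 in Elmo2EID/EID samples. Most of that sum was Scx, and Erbb3 made up most of the sum of the 8 Schwann cell markers, which was 16123 to 17060 in WT and 15423 to 15721 in Elmo2EID/EID samples. For each of these lists 0 markers passed in limma, edgeR or DESeq2, with 1 at an unadjusted p under 0.05. The 6 macrophage markers summed to 22.4 to 35.9 in WT and 35.9 to 87.6 in Elmo2EID/EID samples. Cd34 of the fibroblast list had 83.9, 25.8 and 68.4 in WT, against 117 and 175 in Elmo2EID/EID samples (adjusted p = 0.242 from limma). The named markers were picked after their values were seen, and the part of any marker in the differences below was not tested. In bulk RNA, fewer cells of a type and less RNA per cell cannot be told apart.

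Among the proteases and their inhibitors, 2 of 5 genes fell, Timp1 and Mmp14, where 1.14% of all genes passed as lower. The median log2 fold change of the 5 was -0.59, against 0.01 over all genes tested. Timp1 had 4309, 4202 and 4301 normalized counts in WT and 2814 and 2178 in Elmo2EID/EID samples. The WT samples were nearly level, and both Elmo2EID/EID samples were below all of them. Timp1 fell by 0.79 on the log2 scale (standard error 0.11, adjusted p = 0.020 from limma), to 0.584 times the WT mean. Without WT replicate 1, WT replicate 2 or Elmo2EID/EID replicate 2, the adjusted p of Timp1 was 0.0894, 0.0617 or 0.0663, with a log2 fold change of -0.78, -0.80 or -0.60.

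Mmp14 (chromosome 14, 54431612 to 54445364 in GENCODE M21) had 2989, 2461 and 2331 normalized counts in WT and 1739 and 1629 in Elmo2EID/EID samples. The groups did not overlap, and Mmp14 fell by 0.62 on the log2 scale (standard error 0.11, adjusted p = 0.0486 from limma). The call was close to the threshold. It was lost without WT replicate 1, WT replicate 2, Elmo2EID/EID replicate 1 or Elmo2EID/EID replicate 2, with adjusted p of 0.0845, 0.103, 0.209 and 0.339 and log2 fold changes of -0.51, -0.65, -0.66 and -0.57. Mmp2, the gelatinase that MMP14 activates, had 551, 820 and 676 normalized counts in WT and 423 and 471 in Elmo2EID/EID samples. Both Elmo2EID/EID values were below the lowest WT value, but the difference did not pass in limma (log2 fold change -0.59, adjusted p = 0.157), while DESeq2, run on read counts recovered from the values, called it (adjusted p = 0.0324).

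The other inhibitors overlapped between the genotypes. Timp2, which is needed for the activation of MMP2 by MMP14, had 20351, 21267 and 19715 normalized counts in WT and 18879 and 20543 in Elmo2EID/EID samples. Timp3, the inhibitor that binds to the matrix itself, ranged from 752 to 2140 in WT, and both Elmo2EID/EID samples lay within that range. Per kilobase of exon, the level of Timp1 was 0.918 ± 0.046 times that of Timp2 in WT (SD, n = 3) and 0.560 ± 0.134 times in Elmo2EID/EID samples (SD, n = 2). The same ratio of Timp2 to Mmp14 was 10.4, 13.2 and 12.9 in WT, against 16.6 and 19.3 in Elmo2EID/EID samples. Neither pair of ratios overlapped between the genotypes, and no test was run on them.

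**Figure D2:**
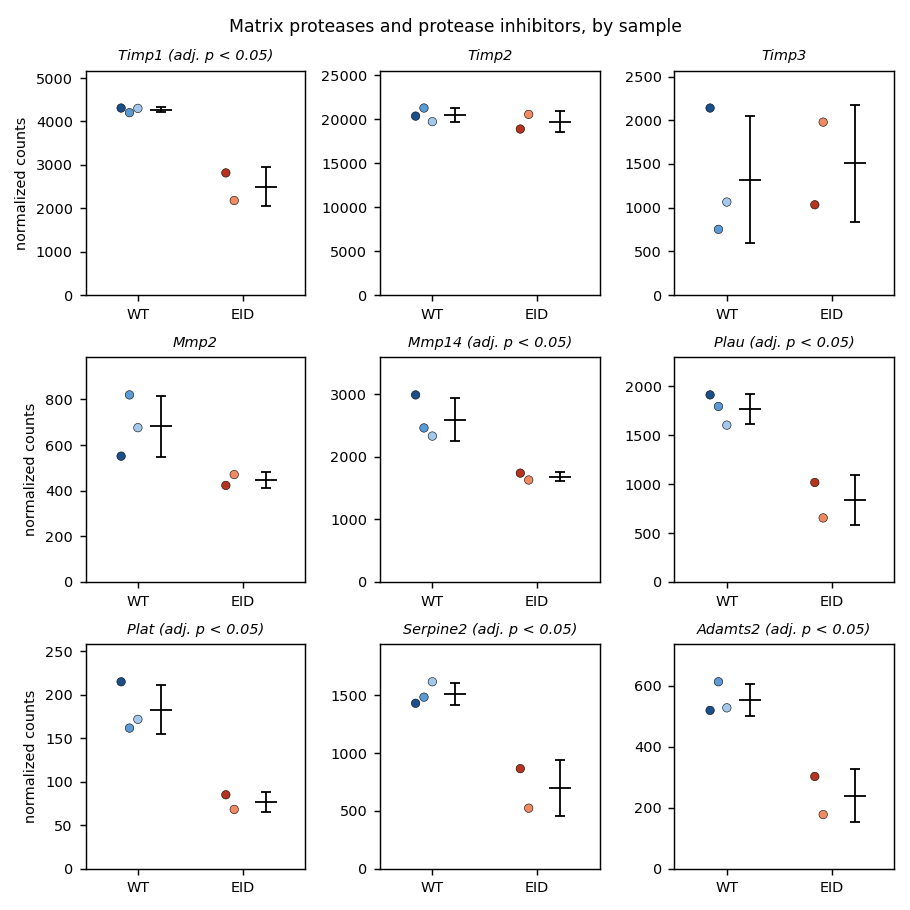
Normalized counts (linear axes from 0) of 5 member proteases and inhibitors and 4 further protease and inhibitor genes in the 3 WT and 2 Elmo2EID/EID (EID) samples, with the mean and SD of each group beside the points. The WT points of Timp1 sit between 4202 and 4309 and its Elmo2EID/EID points at 2178 and 2814, whereas the points of Timp2 and Timp3 overlap between the genotypes.

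The basement membrane group held the third gene that fell. Col18a1 had 12604, 14323 and 11010 normalized counts in WT and 7339 and 4852 in Elmo2EID/EID samples. All WT values were above both Elmo2EID/EID values, and Col18a1 fell by 1.08 on the log2 scale (standard error 0.18, adjusted p = 0.0393 from limma), to 0.482 times the WT mean. The call was lost when any 1 of the 5 samples was left out, with an adjusted p of 0.0513 to 0.204 and a log2 fold change of -1.37 to -0.78. Its close relative Col15a1, the other collagen with an endostatin-like end, had 429, 26.9 and 399 normalized counts in WT and 663 and 314 in Elmo2EID/EID samples. WT replicate 2 stood far below the other 4 samples, and no difference between genotypes was detected for Col15a1 (log2 fold change 1.44, adjusted p = 0.627 from limma).

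Most of the main chains of the basement membrane overlapped between the genotypes. Hspg2, which encodes perlecan and had the highest level per kilobase in this group, had 49639, 50445 and 36425 normalized counts in WT and 42740 and 60510 in Elmo2EID/EID samples. Lama5, Lamb2 and Lamc1, laminin chains, varied little, with WT coefficients of variation (SD over mean) from 4.22% to 7.2%, and their groups overlapped. Lamb1, the other laminin beta chain, was 3319 to 4791 in WT and 2781 and 3269 in Elmo2EID/EID samples, without overlap and without passing the test (log2 fold change -0.34, adjusted p = 0.396 from limma).

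Lama4, the laminin alpha chain of blood vessels and of many non-epithelial cells, went the other way. It had 66.3, 29.2 and 132 normalized counts in WT and 240 and 236 in Elmo2EID/EID samples, so that both Elmo2EID/EID samples were above all WT samples. The difference did not pass in limma (log2 fold change 1.89, adjusted p = 0.172), and DESeq2 called it (adjusted p = 0.0222). The endothelial marker sum was also higher in both Elmo2EID/EID samples and lowest in WT replicate 2, and its part in the Lama4 difference was not tested.

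The genes of both collagen IV chains kept a fixed proportion in every sample. Col4a1 ranged from 13468 to 26357 normalized counts over the 5 samples and Col4a2 from 8474 to 15945, and per kilobase of exon the ratio of Col4a1 to Col4a2 stayed between 1.39 and 1.51. They lie head to head on chromosome 8 on opposite strands, with annotated starts that overlap by 22 bases. The nidogens, which link laminin to collagen IV, behaved otherwise. The ratio of Nid1 to Nid2 per kilobase went from 0.414 in WT replicate 2 to between 1.02 and 1.42 in the other 4 samples.

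Of the 6 fibrillar collagens, 0 passed in limma, with 2 at an unadjusted p under 0.05, 0 called by edgeR and 2 by DESeq2. Over all genes tested, these shares were 2.23%, 15.2%, 2.25% and 5.34%. Col3a1, the chain of type III collagen, had 9036, 7705 and 6694 normalized counts in WT and 5345 and 3226 in Elmo2EID/EID samples. Col5a1, a chain of type V collagen, which sets the diameter of fibrils, had 15617, 10451 and 9684 in WT, against 6901 and 6845 in Elmo2EID/EID samples. For both genes each Elmo2EID/EID value was below each WT value. Their log2 fold changes were -0.90 and -0.76, with adjusted p of 0.102 and 0.115 from limma, and DESeq2 called both, with adjusted p of 0.00165 and 0.00175. Leaving out single samples gave log2 fold changes of -1.26 to -0.54 for Col3a1 and -0.89 to -0.55 for Col5a1, and the limma adjusted p of Col5a1 ranged from 0.0496, without WT replicate 1, to 0.478.

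Col5a2, the second chain of type V collagen, had 14889, 11264 and 11874 normalized counts in WT and 12908 and 13427 in Elmo2EID/EID samples, inside the WT range. Per kilobase of exon the ratio of Col5a1 to Col5a2 was 1.05 ± 0.13 in WT (SD, n = 3) and 0.590 ± 0.020 in Elmo2EID/EID samples (SD, n = 2), without overlap and with no test run. Col3a1 and Col5a2 are neighbours on chromosome 1, 24.6 kb apart on opposite strands. Col1a1, the fibrillar collagen with the highest level per kilobase, had 17800, 4313 and 8363 normalized counts in WT and 7803 and 15161 in Elmo2EID/EID samples, and Col1a2, the other chain of type I collagen, had 13965 to 23364 in WT and 15802 and 18223 in Elmo2EID/EID samples. Both groups overlapped for each chain, and the ratio of Col1a1 to Col1a2 per kilobase ranged from 0.509 in WT replicate 2 to 1.58 in Elmo2EID/EID replicate 2. The level of this ratio depends on the exon lengths used, 6563 bases for Col1a1 and 12426 for Col1a2. Before division by length, the mean over all samples was 10688 normalized counts for Col1a1 and 17480 for Col1a2.

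**Figure D3:**
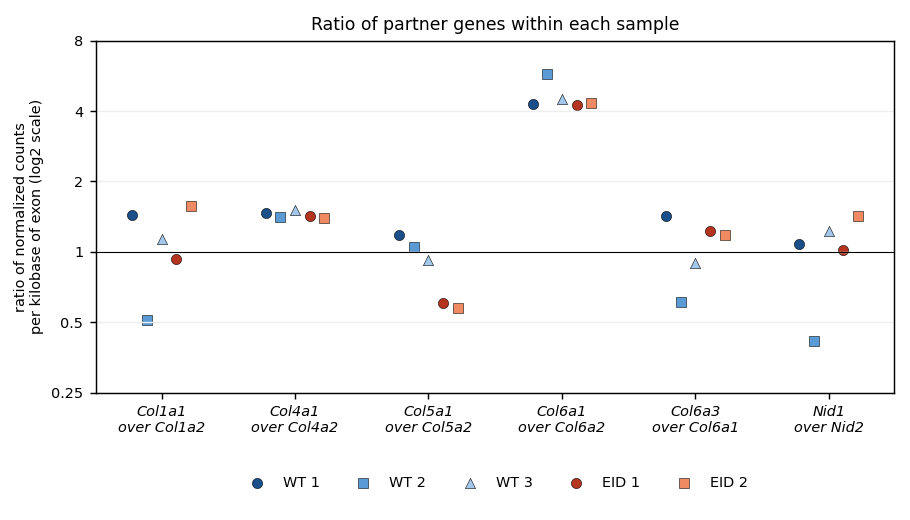
Ratio of normalized counts per kilobase of exon (log axis) between partner genes within each of the 5 samples, with Elmo2EID/EID samples as EID. Col4a1 over Col4a2 stays between 1.39 and 1.51, Col5a1 over Col5a2 is 0.921 to 1.18 in WT and 0.576 to 0.604 in Elmo2EID/EID samples, and WT replicate 2 is lowest for Col1a1 over Col1a2, Col6a3 over Col6a1 and Nid1 over Nid2.

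Of the other 6 collagens, 0 passed in limma or edgeR, with 1 at an unadjusted p under 0.05 and 1 called by DESeq2. Among all genes tested, 15.2% were at an unadjusted p under 0.05 and 5.34% were called by DESeq2. Col12a1, which binds to the surface of collagen fibrils, had 4526, 3833 and 4248 normalized counts in WT and 3312 and 3157 in Elmo2EID/EID samples. Of the separated collagens among the members, it varied least among the WT samples (coefficient of variation 8.30%). Its log2 fold change was -0.37 (adjusted p = 0.0829 from limma) and DESeq2 called it (adjusted p = 0.00640). Col14a1, a relative of Col12a1, was at 46.8 to 86.4 in WT and 38.5 and 35.0 in Elmo2EID/EID samples. Col6a1, Col6a2 and Col6a3, the chains of the collagen VI microfibrils, overlapped between the genotypes, and the level of Col6a3 was 6297, 842 and 2930 in WT, against 2664 and 4300 in Elmo2EID/EID samples. The 3 chains were lowest in WT replicate 2 and highest in WT replicate 1.

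Fibronectin, the elastic fibre genes and the lysyl oxidases, which cross-link collagen and elastin, gave 0 calls in limma or edgeR. Of these 6 genes, 2 were at an unadjusted p under 0.05 and 1 was called by DESeq2, against 15.2% and 5.34% of all genes. Fn1 overlapped between the genotypes, at 23060 to 34118 normalized counts in WT and 19309 and 28971 in Elmo2EID/EID samples. Loxl1, a lysyl oxidase needed for elastic fibres, had 6656, 6662 and 5741 in WT, against 5230 and 4509 in Elmo2EID/EID samples, without overlap (log2 fold change -0.38, adjusted p = 0.116 from limma, adjusted p = 0.0175 from DESeq2). Lox, the founding member of that family and the highest of this group per kilobase, had 15925, 6121 and 12519 in WT, against 12322 and 16746 in Elmo2EID/EID samples. Only WT replicate 2 stood apart for Lox. Eln, which encodes elastin, was low, at 31.1 to 36.2 in WT and 42.0 and 81.6 in Elmo2EID/EID samples (adjusted p = 0.304 from limma).

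The small proteoglycans split by level. Bgn (biglycan) had 20219, 12779 and 16739 normalized counts in WT and 16179 and 16889 in Elmo2EID/EID samples, within the WT range. Dcn (decorin), Fmod (fibromodulin) and Dpt (dermatopontin), genes known for their high level in fibroblasts and tendon, were low in every sample. Dcn had 1.77, 2.24 and 4.97 normalized counts in WT and 8.05 and 17.9 in Elmo2EID/EID samples, Fmod was highest at 81.6 in Elmo2EID/EID replicate 2, and Dpt was at 0 in 3 of the 5 samples.

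Of the matricellular genes, whose products signal to cells from the matrix, Tnc gave the largest difference and did not pass in limma. Tnc, which encodes tenascin-C, a protein of developing and regenerating muscle and tendon, had 12055, 12566 and 6568 normalized counts in WT and 4848 and 3753 in Elmo2EID/EID samples. Both Elmo2EID/EID samples were below all WT samples, and WT replicate 3 lay between them and the other WT samples. Its log2 fold change was -1.23 (adjusted p = 0.0883 from limma, adjusted p = 0.0136 from DESeq2), and without WT replicate 3 it was -1.53 with an adjusted p of 0.00735 from limma. Without each of the other samples the adjusted p from limma was 0.242 (WT replicate 1), 0.196 (WT replicate 2), 0.259 (Elmo2EID/EID replicate 1) and 0.479 (Elmo2EID/EID replicate 2). Of the tendon cell markers, Scx was also lower in both Elmo2EID/EID samples (adjusted p = 0.244 from limma), Mkx and Chodl overlapped between the genotypes, and Tnmd and Kera were at or under 3 reads. Sparc, which encodes a collagen-binding protein and had the highest level per kilobase of all 46 genes (12016 normalized counts per kilobase), was at 41658 to 55461 in WT and 42658 and 44663 in Elmo2EID/EID samples. Thbs1, a thrombospondin that activates latent TGF-beta, was at 24953 to 40723 in WT and 37145 and 46126 in Elmo2EID/EID samples, and both genes overlapped. Pdgfra, a growth factor receptor that also marks fibro-adipogenic progenitors, had 758, 120 and 505 in WT, against 275 and 542 in Elmo2EID/EID samples.

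EdgeR's quasi-likelihood test called Timp1, Col18a1 and Mmp14 as well, 3 lower and 0 higher members, where it called 2.25% of all genes, 1.13% as lower and 1.12% as higher. Across the 45 tested members, the median log2 fold change was -0.04, against 0.01 over all 18156 genes. Of the 42 genes that did not pass, 21 had a negative and 21 a positive log2 fold change. The 2 genotypes did not overlap for 14 members, 11 of them lower in Elmo2EID/EID samples, and 3 higher, while 32.6% of all genes did not overlap, 15.9% as lower and 16.7% as higher. At an unadjusted p under 0.05 there were 9 lower and 3 higher members, where 8.31% and 6.93% of all genes were so. DESeq2 called 10 members where it called 5.34% of all genes, 9 as lower and 1 as higher, against 3.06% and 2.28%. Its calls were Timp1, Col18a1, Mmp14, Col3a1, Col5a1, Col12a1, Loxl1, Tnc and Mmp2 as lower and Lama4 as higher.

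**Figure D4:**
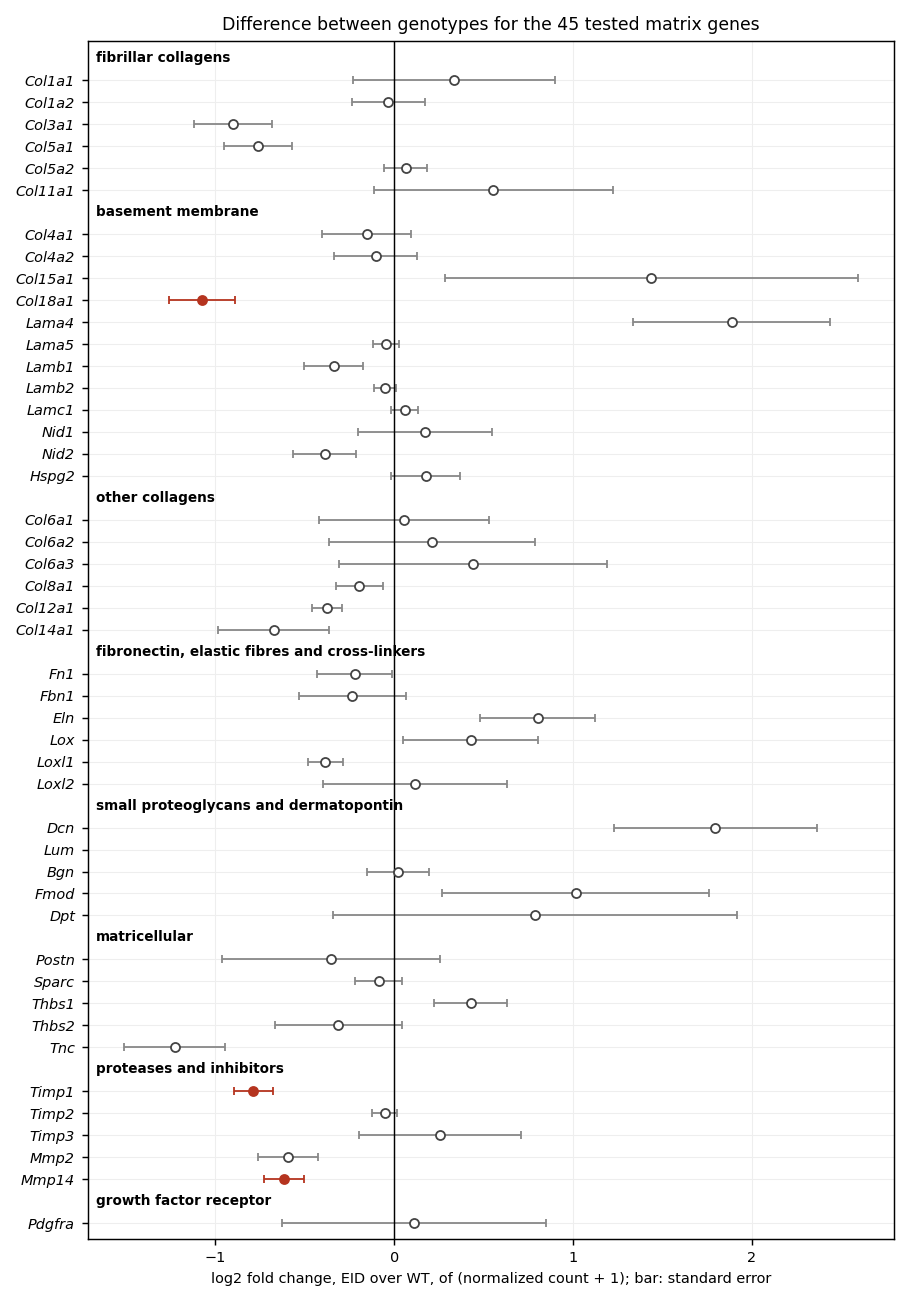
Log2 fold change, Elmo2EID/EID (EID) over WT, of each of the 45 tested members on the scale of log2(normalized count + 1), with bars of 1 standard error; filled red points passed an adjusted p under 0.05 in limma. The filled points are Timp1 at -0.79, Col18a1 at -1.08 and Mmp14 at -0.62, and the widest bars belong to Col15a1 and Dpt.

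The members also varied widely among the WT samples. For the 40 members that averaged 100 normalized counts or more, the median WT coefficient of variation was 26.6%, with quartiles of 15.2% and 51.7%. It was 6.33% for the 10579 genes tested in the same range of mean level. The highest WT value was at least 2 times the lowest for 15 of the 40 members (37.5%), compared with 1.85% of those genes, and at least 4 times for 8 (20%), compared with 0.425%. The widest were Col6a3, Col11a1, Col15a1, Pdgfra and Lama4, with coefficients of variation of 82.0%, 81.4%, 78.6%, 69.7% and 68.6%. Col11a1, a chain of the minor fibrillar collagen XI, had 2829, 442 and 1216 normalized counts in WT and 1569 and 1821 in Elmo2EID/EID samples.

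The 15 wide genes shared their order. They were Col1a1, Col11a1, Col15a1, Lama4, Nid1, Col6a1, Col6a2, Col6a3, Fbn1, Lox, Loxl2, Postn, Thbs2, Timp3 and Pdgfra, and span fibrillar collagens, basement membrane, collagen VI, cross-linkers and matricellular proteins. WT replicate 2 was the lowest WT sample for 15 of 15 and WT replicate 1 the highest for 14 of 15, the exception being Lama4. Among all genes of the same range of level with such a spread, 196 in number, 66.3% were lowest in WT replicate 2 and 51.0% highest in WT replicate 1. Of the 15 members 0 passed in limma or edgeR, with 1, Lama4, at an unadjusted p under 0.05 and called by DESeq2. For 11 of the 15 members (73.3%) both Elmo2EID/EID samples lay within the WT range, compared with 82 of the 196 genes (41.8%). Of those 196, 5 passed in limma and 5 in edgeR, 43 were at an unadjusted p under 0.05 and DESeq2 called 16. Over all 45 tested members, WT replicate 2 was lowest for 27 (60%), where 33.5% of all genes tested had it as the lowest. Other matrix genes also varied. The median WT coefficient of variation was 27.8% over the 45 members and 21.7% over the 142 tested genes of the 3 wider matrix lists described further on, against 10.8% over all genes tested, and WT replicate 2 was lowest for 80 of the 142 (56.3%). Postn, which encodes periostin, a matricellular protein of fibroblasts, had 4317, 882 and 3082 in WT, against 2020 and 1566 in Elmo2EID/EID samples.

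In WT replicate 2 the fibroblast and fibro-adipogenic progenitor markers were also lowest, as a sum, at 163 normalized counts against 522 and 395 in WT replicates 1 and 3, and singly for 4 of the 6 that were tested, Ly6a, Cd34, Twist2 and Osr1, but not for Dpp4 and Pdgfrl. The endothelial markers summed to 396 against 1223 and 1302 and were lowest there for 12 of 12. Of the Schwann cell markers, 5 of the 7 tested were lowest there, with Sox10 at 18.6, 2.24 and 97.0 and Cdh19 at 17.7, 3.37 and 98.2 in WT, while their sum, mostly Erbb3, was highest there. Of the pericyte markers, 4 of the 7 tested were lowest there, while their sum, mostly Acta2, was highest there at 59378. Of the myogenic, tendon cell and macrophage markers, 2 of 9, 1 of 3 and 0 of 5 tested were lowest there. The part of any of these marker lists in the spread of the matrix genes was not tested. The other 25 members varied by less than 2 times among WT samples. The WT spread enters both the test and the overlap of the genotypes, so that neither is independent of this split. In these 25, the genotypes did not overlap for 10, each lower in Elmo2EID/EID samples, where 16.7% of the 10381 genes with the same ranges of level and spread were separated as lower.

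**Figure D5:**
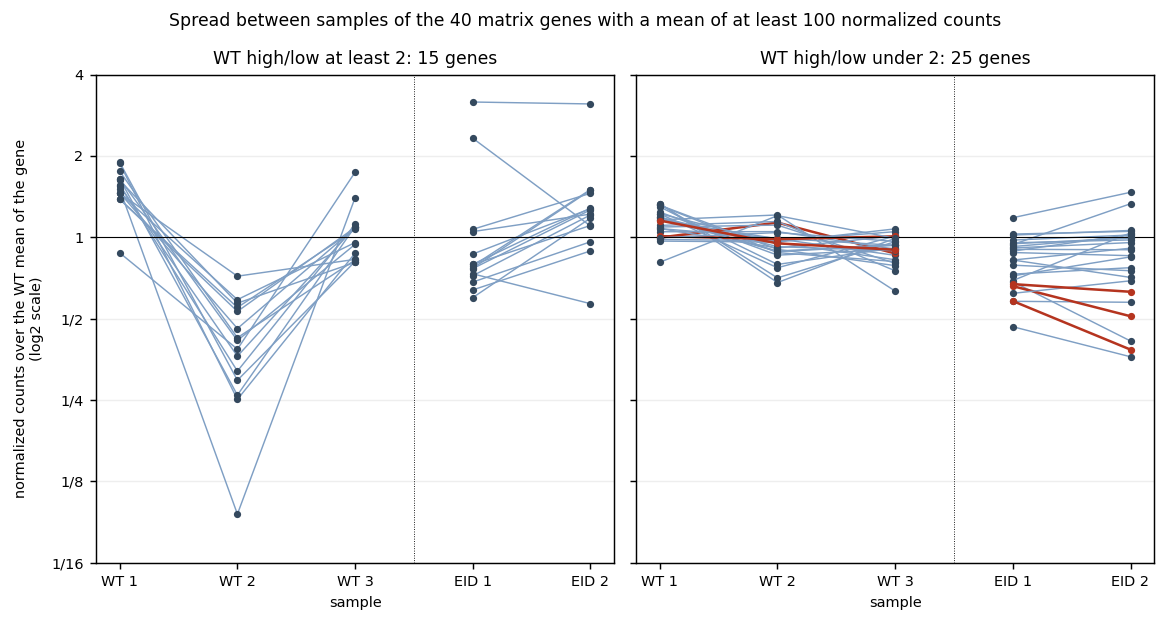
Normalized counts of each of the 40 members with a mean of at least 100, divided by the gene's WT mean (log2 axis), in the 3 WT and 2 Elmo2EID/EID (EID) samples; lines join the samples of a genotype and red marks the 3 genes that fell. The left panel holds the 15 genes whose WT values differ at least 2 times, all lowest in WT replicate 2, and the right panel holds the other 25.

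Further matrix genes were read from 3 wider lists of 159 genes, of which 142 were tested. Of these, 5 fell and 4 rose (6.34%) in limma with Benjamini-Hochberg adjustment, against 2.23% of all genes. Of 28 further proteases and inhibitors, 3 fell and none rose. Plau, the urokinase plasminogen activator, had 1913, 1795 and 1604 normalized counts in WT and 1017 and 654 in Elmo2EID/EID samples. Plat, the tissue plasminogen activator, had 215, 162 and 172 in WT, against 85.0 and 68.1 in Elmo2EID/EID samples. Serpine2, a secreted inhibitor of plasminogen activators and thrombin, had 1432, 1485 and 1618 in WT, against 867 and 524 in Elmo2EID/EID samples. All 3 genes were separated between the genotypes, with log2 fold changes of -1.11, -1.24 and -1.16 and adjusted p of 0.0356, 0.0299 and 0.0386 from limma.

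Among 31 genes for the synthesis and processing of collagen, Adamts2, the protease that removes the N-terminal propeptide of fibrillar procollagens, fell by 1.25 on the log2 scale (adjusted p = 0.0431 from limma), from 553 ± 51.9 normalized counts in WT (SD, n = 3) to 240 ± 88.2 in Elmo2EID/EID samples (SD, n = 2). Tgm2, a transglutaminase that cross-links matrix proteins, rose by 0.62 (adjusted p = 0.0432 from limma), from 1547 ± 119 to 2380 ± 338. Of 83 further structural genes, Spock1, which encodes the proteoglycan testican-1, fell by 1.71 (adjusted p = 0.0197 from limma), from 157 ± 29.6 to 47.0 ± 9.58. Matn2, which encodes the adaptor protein matrilin-2, had 166, 133 and 198 normalized counts in WT and 866 and 751 in Elmo2EID/EID samples, and rose by 2.29 (adjusted p = 0.00234 from limma). It was the largest change among the genes of these lists that passed. Col20a1, a relative of Col12a1, rose by 1.09 (adjusted p = 0.0413 from limma), from 52.7 to 66.3 normalized counts in WT to 123 and 138 in Elmo2EID/EID samples. Col22a1, a collagen of the junction between muscle and tendon, rose by 1.74 (adjusted p = 0.0356 from limma), from 23.1 ± 5.36 to 78.3 ± 9.36.

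These 9 calls rested on few samples. Leaving out Elmo2EID/EID replicate 2 ended each of them, with the adjusted p of Matn2 at 0.0566 and that of Spock1 at 0.104, and leaving out Elmo2EID/EID replicate 1, WT replicate 1, WT replicate 2 or WT replicate 3 gave 5, 1, 3 or 3 calls on these lists, not all of them among the 9. Each of the 9 genes kept its direction in every such fit, with a log2 fold change of 2.15 to 2.43 for Matn2 and of -1.43 to -0.80 for Plau.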

How the data were processed

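The authors enriched poly-A RNA, sequenced read pairs of 50 bases from a stranded kit, aligned them to GRCm38 with STAR 2.5.1b, used featureCounts 1.4.6 (reverse stranded, unique alignments) to count reads by gene, and deposited them as a normalized signal, each count over its sample's DESeq2 1.34.0 size factor. Whole reads were recovered from these values (100% whole within 0.01 read). Names and exon lengths came from GENCODE M21 (54165 identifiers matched). The length of a gene was the union of its annotated exons over all transcripts, which can exceed the length of the transcript that is expressed. Differences were tested on log2(normalized count + 1), which understates changes of low genes, with limma 3.58.1 (mean-variance trend, two-sided, Benjamini-Hochberg adjustment, threshold 0.05) over genes with at least 5 normalized counts in 1 sample. Alternatives used edgeR 4.0.16 and DESeq2 1.42.0 on the recovered reads, and the tests were tried on simulated data. Members and lists were chosen with earlier results of these data known. Sample values were given for members called by limma, edgeR or DESeq2, the 5 largest fold changes, the 5 largest WT coefficients of variation and the highest per kilobase in each group, with some others added after their values were seen; of the wider lists, the called genes were named. Replicate libraries differed by more than sampling noise.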

Additional observations from a re-analysis of the deposited data

How the results depend on the processing

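In limma, 404 of all genes, 3 members and 9 genes of the wider lists passed. Without a filter on low values, 155, 0 and 1 did (11 members at an unadjusted p under 0.05, and 3 by edgeR with the filter), and with a mean of at least 20, 1 member did, Timp1. The DESeq2 Wald test called 969, 10 and 22. The difference between replicates 1 and 2 in WT correlated at -0.238 with that in Elmo2EID/EID samples, across 13769 genes that are not independent. With 1 such difference per genotype, this cannot show whether replicate numbers pair the samples. The replicate block gave 224, 6 and 4 calls, in a fit to which WT replicate 3, without a partner, adds nothing. Under the block Timp1 and Mmp14 kept their calls, Col18a1 lost its own (adjusted p = 0.0655 from limma), Col3a1, Tnc, Lama4 and Nid2 gained one, and of the 9 wider genes Plau and Matn2 kept theirs. The crossed pairing, chosen after seeing the data, gave 1041, 10 and 26. Leaving out each sample in turn, with a lone Elmo2EID/EID sample assumed to vary like the WT samples, gave 54 to 349, 0 to 5 and 0 to 5 calls. No member passed without WT replicate 2 (15 at an unadjusted p under 0.05) or without Elmo2EID/EID replicate 2 (8). Mmp14 was also lost with a pseudocount of 0.5 (adjusted p = 0.0518) and with equal totals (0.0526), both from limma. The median log2 fold change of the fibronectin group was -0.05 and ranged from -0.30 to 0.33 over the left-out samples. For the small proteoglycans it was 0.90, 1.42 in edgeR, 1.55 in DESeq2 and -0.010 to 2.31 over the left-out samples. Only the medians of the protease group kept their sign in every fit. Over 25 named genes, the 12 called ones kept the call in 94 of 168 alternative fits and lost it in 74, the others stayed uncalled in 166 of 181 and gained a call in 15, and 0 changed sign. Depth limited Lum, Dcn and Dpt, which were at or near 3 reads in most samples.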
